A study of Mus musculus with 12 samples.

Results

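Complement genes were followed in quadriceps muscle of dystrophic mice given a glucocorticoid or a mineralocorticoid receptor antagonist with an angiotensin-converting enzyme inhibitor. The genes were a listed set of 9 complement components, regulators and receptors: C1qa, C1qb, C1qc, C3, C6, C7, Cfb, Serping1 and C3ar1. A gene was taken where the platform annotation pairs a transcript cluster of the array with exactly 1 symbol, which held for 8 of the 9 and for 30412 of the 65587 clusters of the table. Each of the 8 had 1 such cluster, and C3 is not analysed here. All 12 mice were male, 6 weeks old, on the C57BL/10 background and of genotype utrn+/-;mdx, so that every group lacked normal dystrophin and carried 1 mutant utrophin allele. The groups of 3 mice received prednisolone (1.5 mg/kg per day in drinking water), spironolactone with lisinopril (100 and 20 mg/kg per day in pellets), eplerenone with lisinopril (200 and 20 mg/kg per day in pellets), or normal chow without drug, with all treatments started at 4 weeks of age. Healthy muscle and drug-free pellets were not among the groups. Each mouse gave 1 array, and the values are log2 signals, so a difference of 1 is a 2-fold difference. Differences are given ± SE from limma, with p-values adjusted by the Benjamini-Hochberg method over all 30412 clusters and a threshold of 0.05.

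The complement system is a cascade of plasma proteins that tags dying cells, debris and microbes for uptake. C1q starts the classical pathway when it binds a target, factor B amplifies the cascade through the alternative pathway, C5 to C9 assemble the membrane attack complex, and the C1 inhibitor and other regulators hold the cascade back. In injured and dystrophic muscle, macrophages are a known source of C1q, and stromal cells are known to make several other components. Glucocorticoids are given to patients with Duchenne muscular dystrophy, and spironolactone and eplerenone are steroid antagonists of the mineralocorticoid receptor. Eplerenone carries an epoxide and a methyl ester in its structure, and spironolactone carries an acetylthio group.

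Under prednisolone 2 of the 8 genes fell against untreated muscle: Cfb, by 1.23 ± 0.21 on the log2 scale (adjusted p = 0.00956), and C1qb, by 0.94 ± 0.19 (adjusted p = 0.0166). None of the 8 rose past the threshold. Over all clusters 3.17% fell and 3.22% rose in that comparison, 6.39% in all. At an unadjusted p under 0.05, 4 of the 8 were lower and 1 was higher, beside 10.8% and 10.9% of clusters. With both combinations of an antagonist and lisinopril, 0 of the 8 passed against untreated muscle by limma, where 0.0822% of clusters passed for the spironolactone combination and 0.0296% for the eplerenone combination, in either direction. At an unadjusted p under 0.05, 3 of the 8 were lower with spironolactone plus lisinopril (C1qb, C1qc and Cfb; 9.84% of clusters), and 1 was lower with eplerenone plus lisinopril (Cfb; 7.33% of clusters). The median difference of the 8 genes was -0.55 for prednisolone, -0.49 for the spironolactone combination and -0.26 for the eplerenone combination, beside -0.01, -0.04 and -0.03 for all clusters. In each of these comparisons 7 of the 8 estimates lay below 0, as did 52.7% of clusters for prednisolone, 59.2% for spironolactone plus lisinopril and 56% for eplerenone plus lisinopril. The 3 comparisons share the untreated arrays.

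**Figure D1:**
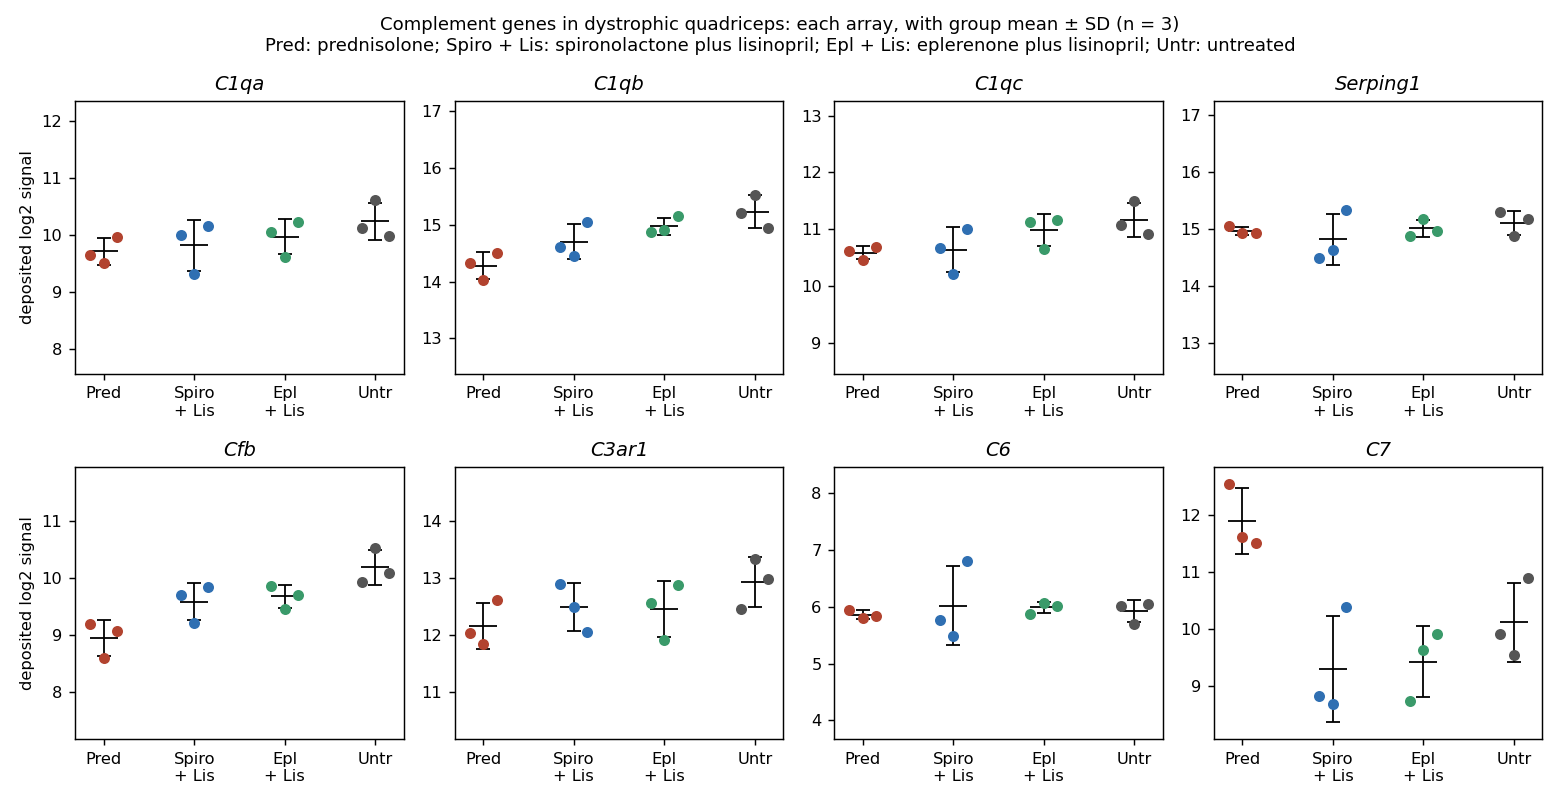
Deposited log2 signal (vertical axis) of the 8 complement genes in each array, by group, with the group mean ± SD (n = 3); every panel spans the same number of log2 units. The prednisolone arrays are the 3 lowest of all 12 for Cfb and the 3 highest for C7, and for C1qb they lie below every untreated array; C6 and Serping1 overlap among all 4 groups.

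C1qa, C1qb and C1qc encode the 3 chains of C1q, the recognition molecule of the classical pathway. The genes lie side by side in 18.7 kb of mouse chromosome 4 (GRCm38.p6, chr4:136880126-136898844), with no other protein-coding gene between them. The promoters of C1qb and C1qc are shown because these neighbours varied together across the arrays; each runs from 250 bases before to 50 bases after the RefSeq gene start (GRCm38.p6, minus strand, chr4:136886151-136886450 for C1qb and chr4:136892865-136893164 for C1qc), 5′ to 3′, with motif matches in capitals.
C1qb: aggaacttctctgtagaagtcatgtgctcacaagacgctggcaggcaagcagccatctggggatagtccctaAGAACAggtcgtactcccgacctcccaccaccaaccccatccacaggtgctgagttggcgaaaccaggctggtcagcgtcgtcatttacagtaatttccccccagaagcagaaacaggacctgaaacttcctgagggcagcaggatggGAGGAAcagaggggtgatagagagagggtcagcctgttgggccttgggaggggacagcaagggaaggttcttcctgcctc
C1qc: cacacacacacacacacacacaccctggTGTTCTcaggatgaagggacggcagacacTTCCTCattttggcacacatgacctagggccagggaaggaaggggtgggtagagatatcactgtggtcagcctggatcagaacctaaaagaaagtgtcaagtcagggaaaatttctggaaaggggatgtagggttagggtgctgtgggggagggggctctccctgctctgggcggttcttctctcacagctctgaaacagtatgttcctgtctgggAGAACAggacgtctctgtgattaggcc
RefSeq promoters of this length were at hand for 5 of the 8 genes. Both strands were searched for 4 motifs, and the C6 and C3ar1 windows, which are not shown, hold no match to any of them. AGAACA, the hexamer bound by the glucocorticoid receptor, occurs in 19.0% of all 32851 promoters of that length, GAGGAA, the core bound by PU.1 and related ETS factors, in 28.3%, TTGNGNAA, a C/EBP motif, in 13.3%, and TTCNNNGAA, the interferon-gamma activated site, in 8.3%. The C1qb window holds 1 AGAACA and 1 GAGGAA match, and the C1qc window holds 2 AGAACA matches and 1 GAGGAA match, which none of the other motifs overlap. Such matches describe the letters of the window only.

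Of the 3 chains, C1qb differed most clearly. C1qb read 14.32, 14.03 and 14.50 in prednisolone muscle, 14.60, 14.45 and 15.04 with spironolactone plus lisinopril, 14.88, 14.90 and 15.15 with eplerenone plus lisinopril, and 15.21, 15.53 and 14.94 in untreated muscle. Every prednisolone array lay below every untreated array, while the arrays of both combinations overlapped with the untreated ones. The prednisolone level was 0.521 times the untreated one. In the differences from untreated, C1qb was at -0.53 ± 0.19 with spironolactone plus lisinopril (adjusted p = 0.231) and at -0.25 ± 0.19 with eplerenone plus lisinopril (adjusted p = 0.584). The prednisolone call rested on single arrays: the adjusted p was 0.056 without prednisolone array 1, 0.0779 without prednisolone array 2 and 0.0582 without untreated array 2, at differences of -0.96, -0.81 and -0.79. It was also lost when only the prednisolone and untreated arrays were fitted (adjusted p = 0.0567) and with untreated array 1 as the only untreated array (-0.92, adjusted p = 0.16).

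C1qa and C1qc followed the same order of groups without passing. C1qa read 9.65, 9.51 and 9.97 in prednisolone muscle, 10.00, 9.31 and 10.15 with spironolactone plus lisinopril, 10.06, 9.62 and 10.23 with eplerenone plus lisinopril, and 10.13, 10.61 and 9.98 in untreated muscle. C1qc read 10.61, 10.46 and 10.69 in prednisolone muscle, 10.67, 10.22 and 11.01 with spironolactone plus lisinopril, 11.12, 10.66 and 11.16 with eplerenone plus lisinopril, and 11.08, 11.50 and 10.91 in untreated muscle. For both genes all prednisolone arrays lay below all untreated arrays, for C1qa narrowly, with 9.97 in the highest prednisolone array and 9.98 in the lowest untreated one. With C1qb and Cfb that made 4 of 8 genes whose prednisolone arrays all lay lower, beside 13.3% of all clusters. Under prednisolone C1qa was at -0.53 ± 0.25 (adjusted p = 0.241) and C1qc at -0.58 ± 0.21 (adjusted p = 0.14). In both combinations array 2 was the lowest of the 3 for C1qa and C1qc, and in untreated muscle array 2 was the highest for all 3 chains.

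Serping1 encodes the C1 inhibitor, which blocks the C1 proteases. Serping1 read 15.05, 14.92 and 14.93 in prednisolone muscle, 14.49, 14.63 and 15.34 with spironolactone plus lisinopril, 14.88, 15.17 and 14.96 with eplerenone plus lisinopril, and 15.29, 14.88 and 15.17 in untreated muscle. All groups overlapped with the untreated one. The differences from untreated were -0.14 ± 0.19 for prednisolone (95% interval -0.57 to 0.28; adjusted p = 0.741), -0.29 ± 0.19 for spironolactone plus lisinopril (adjusted p = 0.461) and -0.11 ± 0.19 for eplerenone plus lisinopril (adjusted p = 0.845). The lowest and the highest reading of Serping1 both came from mice given spironolactone plus lisinopril, arrays 1 and 3.

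Of the other 5 measured classical genes, 0 passed by limma in any comparison with untreated muscle, and 0 had an unadjusted p under 0.05. C1ra, a protease of the C1 complex, was at -0.28 ± 0.18 under prednisolone (adjusted p = 0.411), and C2, the protease component of the classical convertase, at -0.20 (adjusted p = 0.653). C4b, which encodes complement C4, was at 0.62 ± 0.42 (adjusted p = 0.438), with readings of 11.42, 10.27 and 10.42 in prednisolone muscle and 9.91, 9.92 and 10.41 in untreated muscle. C4a was at 0.43 (adjusted p = 0.42), and C4a and C4b, like C1ra and C1rb, are close copies whose probes may not tell them apart. C1s1 and C1s2, the partners of C1r, had no cluster with exactly 1 symbol and are not analysed here. In the lectin pathway, which starts from sugar-binding proteins, 0 of 9 genes passed by limma for any treatment; at an unadjusted p under 0.05, 1 was lower and 1 higher under prednisolone (10.8% and 10.9% of all clusters), 1 was lower with spironolactone plus lisinopril (9.84%) and 0 differed with eplerenone plus lisinopril, so 1 of 9 is about the share over all clusters. The ficolin gene Fcna was at 0.66 ± 0.19 under prednisolone (adjusted p = 0.0641), and the scavenger collectin Colec12 at -0.59 ± 0.19 (adjusted p = 0.0919). The prednisolone arrays of Fcna did not overlap with the untreated ones, as for 13.4% of clusters that lay higher. Array 3 of spironolactone plus lisinopril, at 7.20, lay within the prednisolone readings of 7.49, 7.42 and 7.07.

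Factor B, the product of Cfb, is the protease that builds the alternative pathway convertase, and it showed the lowest adjusted p of the 8 genes. Cfb lies on chromosome 17 (GRCm38.p6, chr17:34856374-34862514), 87 bases from the related gene C2. Cfb read 9.19, 8.60 and 9.07 in prednisolone muscle, 9.71, 9.21 and 9.85 with spironolactone plus lisinopril, 9.87, 9.46 and 9.70 with eplerenone plus lisinopril, and 9.94, 10.53 and 10.09 in untreated muscle. Every array of each treated group lay below every untreated array, which held for 13.1% of clusters with spironolactone plus lisinopril and for 9.23% with eplerenone plus lisinopril. The prednisolone level was 0.425 times the untreated one, past the 2-fold change that the study design names, which 1.17% of clusters passed downward. Cfb was at -0.60 ± 0.21 with spironolactone plus lisinopril (adjusted p = 0.235) and at -0.51 ± 0.21 with eplerenone plus lisinopril (adjusted p = 0.339), neither past the threshold. The prednisolone call held in 19 of 20 alternatives; with untreated array 1 as the only untreated array, Cfb was at -0.99 (adjusted p = 0.199).

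Read directly against prednisolone, Cfb was at 0.64 ± 0.21 with spironolactone plus lisinopril (adjusted p = 0.18) and at 0.72 ± 0.21 with eplerenone plus lisinopril (adjusted p = 0.18). Its arrays did not overlap with the prednisolone arrays in either case, beside 10.2% and 9.96% of clusters that lay higher without overlap. Properdin, encoded by Cfp, stabilises the convertase that factor B forms. Cfp read 9.25, 9.12 and 9.76 in prednisolone muscle and 9.57, 10.62 and 10.26 in untreated muscle, a difference of -0.78 ± 0.29 (adjusted p = 0.151), with overlap.

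**Figure D2:**
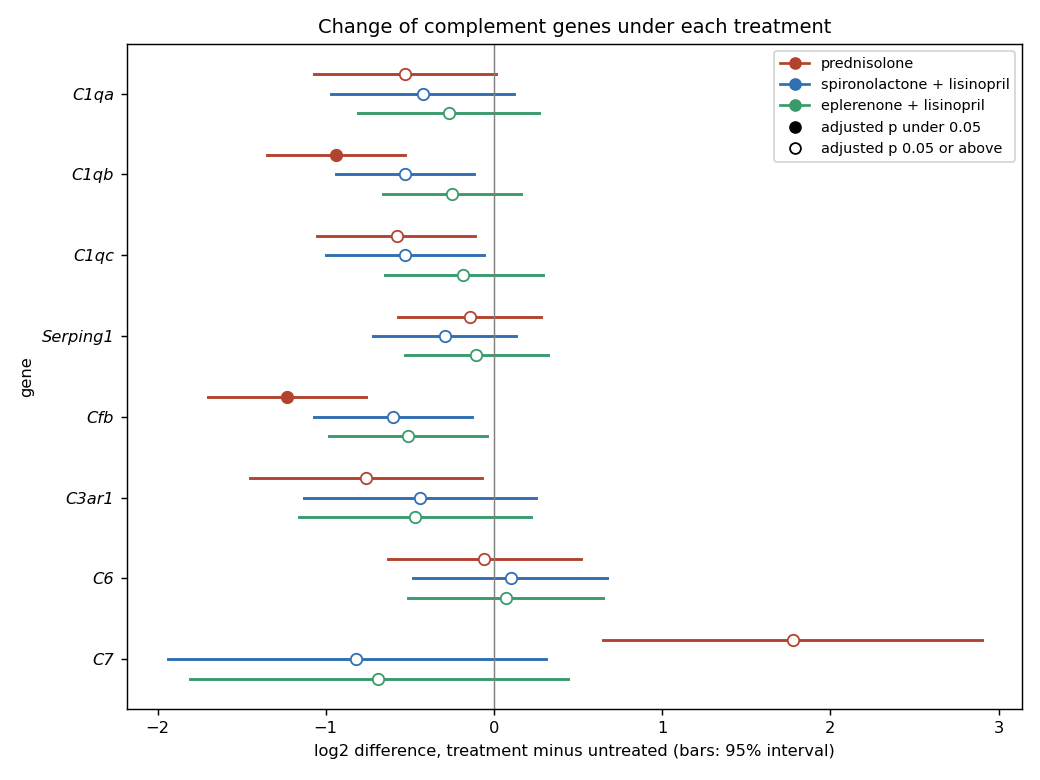
Log2 difference from untreated (horizontal axis) of each gene under the 3 treatments, with the 95% interval of the limma estimate; filled points have an adjusted p under 0.05. Filled points are Cfb at -1.23 and C1qb at -0.94, both for prednisolone, and the C7 estimate is 1.78 for prednisolone and below 0 for both combinations.

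C3ar1 encodes the receptor for C3a, the peptide released from C3, and is carried by myeloid cells. C3ar1 read 12.04, 11.84 and 12.61 in prednisolone muscle, 12.90, 12.50 and 12.06 with spironolactone plus lisinopril, 12.56, 11.92 and 12.89 with eplerenone plus lisinopril, and 12.46, 13.34 and 12.98 in untreated muscle. All groups overlapped with the untreated one, in which array 1 was the lowest. C3ar1 was at -0.76 ± 0.31 under prednisolone (adjusted p = 0.186), -0.44 ± 0.31 with spironolactone plus lisinopril (adjusted p = 0.491) and -0.47 ± 0.31 with eplerenone plus lisinopril (adjusted p = 0.538). Measured from untreated array 1 alone, the prednisolone difference was -0.30 (adjusted p = 0.852) and that of spironolactone plus lisinopril was 0.02 (adjusted p = 0.991).

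Among the 9 listed complement receptors and related surface proteins, C3ar1 included, 1 fell under prednisolone, beside 3.17% of all clusters. With either combination 0 passed by limma. At an unadjusted p under 0.05, 0 were lower with spironolactone plus lisinopril (9.84% of clusters) and 1 with eplerenone plus lisinopril (7.33%). The gene that fell under prednisolone was Cd93, a surface protein of endothelial and myeloid cells once described as a C1q receptor. Cd93 fell by 1.13 ± 0.18 (adjusted p = 0.00739). Cd93 read 10.76, 10.68 and 11.17 in prednisolone muscle and 11.93, 12.03 and 12.05 in untreated muscle, lower without overlap, as for 13.3% of clusters. It passed in 19 of 20 alternatives, and from untreated array 1 alone the difference was -1.05. Of 9 measured endothelial markers, 2 fell under prednisolone (Cdh5 and Esam), beside 3.17% of all clusters, and 7 estimates lay below 0 (52.7% of clusters). Kdr and Tek were not lower, with means of 11.10 and 10.01 in prednisolone muscle and 11.04 and 9.98 in untreated muscle. The mean level of that list was 9.28 to 9.48 in prednisolone muscle and 10.25, 9.33 and 10.30 in untreated muscle. The part of endothelial markers in the Cd93 result was not tested. Itgam, a chain of complement receptor 3, was at -1.18 ± 0.46 under prednisolone (adjusted p = 0.164), and C5ar1, the receptor for C5a, at -0.87 ± 0.47 (adjusted p = 0.319). The means of Itgam and C5ar1 were also lower with spironolactone plus lisinopril (11.24 and 7.61) and eplerenone plus lisinopril (11.09 and 7.26) than in untreated muscle (12.16 and 8.28). Vsig4, a receptor of resident macrophages for C3 fragments, lay on the other side under prednisolone at 0.58 ± 0.21 (adjusted p = 0.124). It did not overlap with the untreated group, as for 13.4% of clusters that lay higher.

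C6 and C7 encode consecutive components of the membrane attack complex and lie 183704 bases apart on chromosome 15 (GRCm38.p6, chr15:4727067-4804045 for C6 and chr15:4987750-5063773 for C7). The prednisolone group stood apart for C7 only, while within groups C6 and C7 varied together (Pearson r of 0.80). The promoter of C7 is shown because its prednisolone arrays stood apart from those of every other group (GRCm38.p6, minus strand, chr15:5063724-5064023, same span and motifs as above). Its 1 match, in capitals, is TTCNNNGAA.
C7: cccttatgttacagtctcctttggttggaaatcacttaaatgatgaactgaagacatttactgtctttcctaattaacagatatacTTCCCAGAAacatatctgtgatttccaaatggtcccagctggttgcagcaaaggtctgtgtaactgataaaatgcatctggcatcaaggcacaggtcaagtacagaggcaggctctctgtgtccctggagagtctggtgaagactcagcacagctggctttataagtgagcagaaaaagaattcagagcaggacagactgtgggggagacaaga
C7 read 12.56, 11.62 and 11.51 in prednisolone muscle, 8.83, 8.68 and 10.39 with spironolactone plus lisinopril, 8.73, 9.64 and 9.92 with eplerenone plus lisinopril, and 9.91, 9.55 and 10.90 in untreated muscle. The 3 prednisolone arrays were the highest of all 12. Against untreated muscle the prednisolone difference was 1.78 ± 0.51, 3.43 times the untreated level, and it missed the threshold (adjusted p = 0.0657; 95% interval 0.65 to 2.90). Of all clusters, 13.4% lay higher under prednisolone without overlap, and 0.523% were at least 2-fold higher.

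For the combinations the C7 estimates were below 0. C7 was at -0.82 ± 0.51 with spironolactone plus lisinopril (adjusted p = 0.437) and at -0.69 ± 0.51 with eplerenone plus lisinopril (adjusted p = 0.582) against untreated muscle, and both groups overlapped with it. Set directly against prednisolone, C7 fell by 2.60 ± 0.51 with spironolactone plus lisinopril (0.165 times the prednisolone level, adjusted p = 0.0471), which made it the 1 gene of the 8 past the threshold there, beside 0.372% of clusters lower and 0.822% in either direction. Its arrays lay below all prednisolone arrays, as did 13.8% of clusters. At an unadjusted p under 0.05, C7 was lower there (8.84% of clusters), and C1qb and Cfb were higher (7.45% of clusters). With eplerenone plus lisinopril it was at -2.46 ± 0.51 (adjusted p = 0.0593), and 0 of the 8 genes passed, where 0.608% of clusters passed in either direction. At an unadjusted p under 0.05, 3 of the 8 differed there by limma: C7 was lower (6.61% of clusters), and C1qb and Cfb were higher (5.85% of clusters). The C7 arrays again lay below all prednisolone arrays, as did 9.91% of clusters. The C7 call between spironolactone plus lisinopril and prednisolone held in 6 of 20 alternatives, with adjusted p between 0.0264 and 0.158 and the difference between -3.14 and -2.26. It was lost without any single array of prednisolone (highest adjusted p = 0.158), of eplerenone plus lisinopril (0.0688), without arrays 1 or 2 of spironolactone plus lisinopril (0.15 and 0.122) and without untreated arrays 1 or 2 (0.0533 and 0.0525), and also with the replicate number as a block (0.0627). Without array 3 of spironolactone plus lisinopril, in contrast, C7 passed for prednisolone against untreated (adjusted p = 0.0322) and for eplerenone plus lisinopril against prednisolone (0.0301).

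C6 showed no separation of the groups. C6 read 5.95, 5.80 and 5.84 in prednisolone muscle, 5.77, 5.48 and 6.80 with spironolactone plus lisinopril, 5.87, 6.07 and 6.02 with eplerenone plus lisinopril, and 6.01, 5.70 and 6.04 in untreated muscle. Array 3 of spironolactone plus lisinopril was the highest of all 12, and the other arrays lay within 5.48 to 6.07. The differences from untreated were -0.06 ± 0.26 for prednisolone, 0.10 ± 0.26 for spironolactone plus lisinopril (-0.29 without its array 3) and 0.07 ± 0.26 for eplerenone plus lisinopril, with adjusted p from 0.874 to 0.935. The same array was the highest of its group for C7 and Serping1, and it had the highest mean level of the adipocyte markers (12.07, against 9.50 and 10.47 in the other arrays of its group) and of the fibroblast markers (12.83, against 12.20 and 12.24); their part in the C6, C7 and Serping1 readings was not tested. Of the other 5 measured genes of the terminal pathway, 0 passed by limma for any treatment and 0 had an unadjusted p under 0.05, and their prednisolone differences ran from -0.11 (C8b) to 0.18 (C8g). These 5 were dim, with group means from 3.99 (C9) to 5.07 (C8g), below the median cluster mean of 5.76. C6, with a mean of 5.95 over the 12 arrays, lay just above that median. At such levels a change can go unseen.

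**Figure D3:**
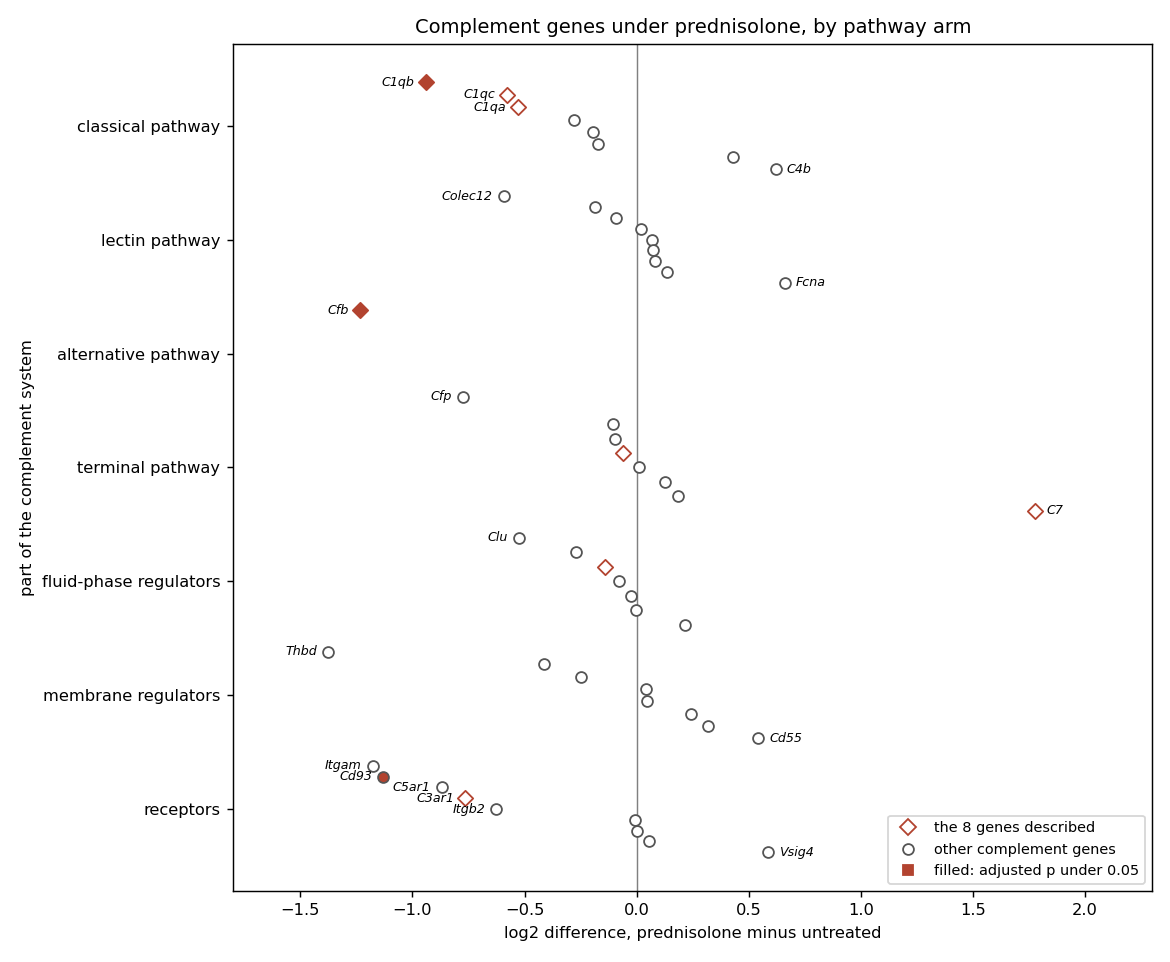
Log2 difference of prednisolone from untreated muscle (horizontal axis) for all measured complement genes, in rows by arm of the system; diamonds are the 8 genes described, circles the others, and filled symbols have an adjusted p under 0.05. Filled symbols are Cfb, C1qb and Cd93, all to the left of 0, and C7 lies farthest right at 1.78.

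Beyond the 8 genes, 42 of 48 other listed complement genes had a cluster with exactly 1 symbol. Of these 42, 1 fell and 0 rose under prednisolone (3.17% and 3.22% of all clusters), and 0 passed with spironolactone plus lisinopril or with eplerenone plus lisinopril by limma; at an unadjusted p under 0.05, 6 of the 42 were lower and 2 higher under prednisolone (10.8% and 10.9% of all clusters), 3 lower and 1 higher with spironolactone plus lisinopril (9.84% and 6.37%), and 3 lower and 2 higher with eplerenone plus lisinopril (7.33% and 6.11%), shares near or below those of all clusters except for the 6 lower under prednisolone. Their median difference was 0 under prednisolone, -0.08 with spironolactone plus lisinopril and -0.07 with eplerenone plus lisinopril. Regulators of the cascade were among those that did not pass. Thbd, which encodes thrombomodulin, was at -1.38 ± 0.37 under prednisolone (adjusted p = 0.0507). Its mean was 8.55 under prednisolone, 8.65 with spironolactone plus lisinopril, 8.67 with eplerenone plus lisinopril and 9.93 in untreated muscle. Every array of each treated group lay below every untreated array, as for 13.3%, 13.1% and 9.23% of clusters. Cr1l, a mouse membrane regulator of C3 and C4, was at -0.25 ± 0.09 (adjusted p = 0.154). Clu, the extracellular chaperone clusterin that binds the terminal complex, read 11.04, 11.27 and 10.65 with spironolactone plus lisinopril, 10.54, 10.63 and 11.24 with eplerenone plus lisinopril and 11.43, 12.04 and 12.15 in untreated muscle, below it in every array of both combinations. Its differences were -0.89 ± 0.27 (adjusted p = 0.194) and -1.07 ± 0.27 (adjusted p = 0.195). Cd55, decay-accelerating factor, was at 0.77 ± 0.27 with eplerenone plus lisinopril (adjusted p = 0.286). Its mean was above the untreated one in all treated groups: 14.84 under prednisolone, 14.83 with spironolactone plus lisinopril and 15.06 with eplerenone plus lisinopril. The untreated mean was 14.29, with array 2 the lowest at 13.78.

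Spironolactone and eplerenone, each with lisinopril, were given at different doses, and no difference between their groups was detected for the 8 genes: 0 passed by limma and 0 had an unadjusted p under 0.05, while over all clusters 0 passed as well (2.62% were lower and 1.86% higher at an unadjusted p under 0.05). The widest interval was that of C7, from -1.26 to 0.99 for spironolactone plus lisinopril minus eplerenone plus lisinopril. For C1qb it was -0.69 to 0.14, for C1qc -0.81 to 0.12 and for Cfb -0.56 to 0.38, and differences within these limits are not excluded. All of the 8 intervals span 0.

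Ordered by group mean, C1qa, C1qb, C1qc and Cfb had the same sequence: prednisolone was lowest, followed upward by spironolactone plus lisinopril, eplerenone plus lisinopril and untreated. C3ar1 was also lowest in prednisolone muscle (12.16 ± 0.40, SD) and highest in untreated muscle (12.93 ± 0.44), with the combinations between them at 12.49 and 12.46. C7 ran the other way at its top, with 11.90 ± 0.58 in prednisolone muscle, 9.30 ± 0.94 with spironolactone plus lisinopril, 9.43 ± 0.62 with eplerenone plus lisinopril and 10.12 ± 0.70 in untreated muscle. Of the 24 pairs of neighbouring groups in these orders, over the 8 genes, 0 passed by limma, so only groups farther apart in an order were told apart. In the F-test over the 4 groups 0 of 8 genes passed (1.93% of clusters did), with Cfb at an adjusted p of 0.0532, C7 at 0.0554 and C1qb at 0.0714; these 3 had an unadjusted p under 0.05, as did 19.6% of clusters.

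From mouse to mouse, some of the genes varied together within their groups. After subtraction of the group means, C1qa and C1qc had a Pearson r of 0.96 over the 12 arrays (Spearman's rho 0.97), and 0.93 without the 2 arrays farthest from the median of C1qa. C1qb and C1qc had an r of 0.84 (rho 0.76; 0.70 without the 2 farthest arrays), and C1qc and Cfb an r of 0.85 (rho 0.82; 0.77). C6 and Serping1 had an r of 0.91 (rho 0.92), and C6 and C7 an r of 0.80 (rho 0.90). Without array 3 of spironolactone plus lisinopril these were 0.61 and 0.70. The same array set the relation between C1qc and Serping1, at 0.12 with it and -0.79 without it. C3ar1 and Serping1 had an r of -0.72 with it and -0.75 without it. These pairs were picked from 28 after their values were seen, and they describe arrays that share normalization and tissue, with no test.

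**Figure D4:**
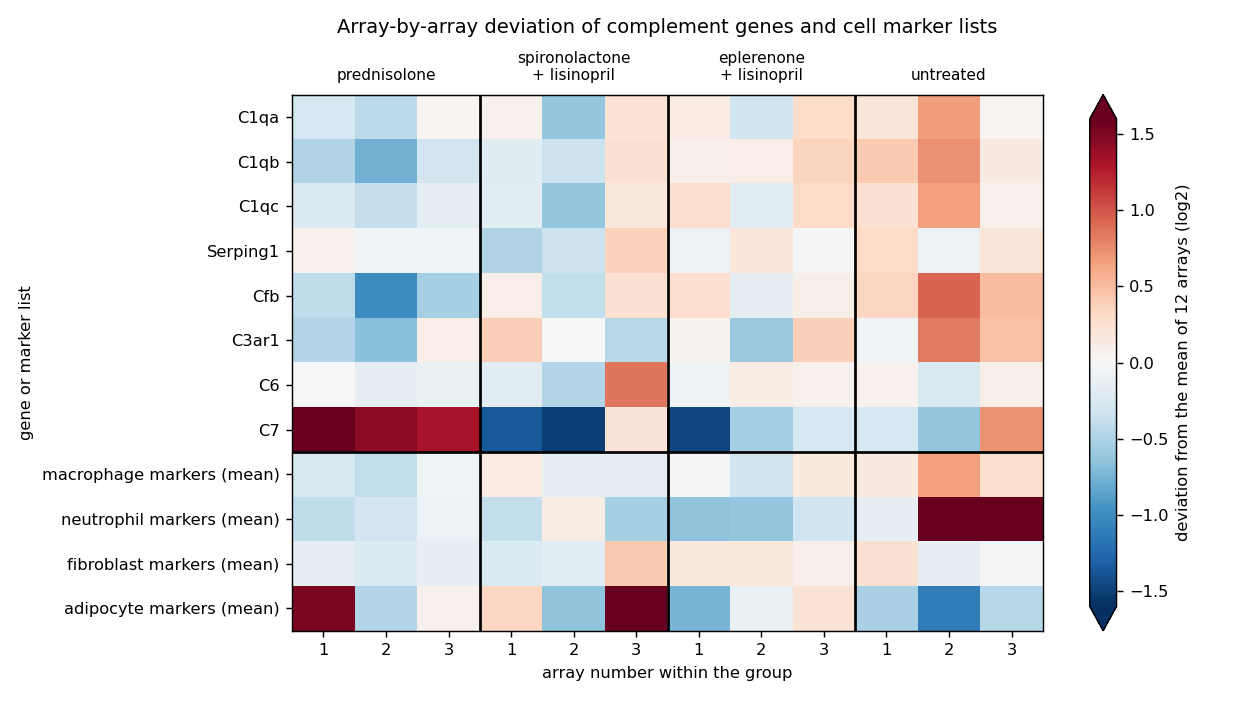
Deviation of each gene, and of the mean of 4 cell marker lists, from its mean over the 12 arrays (log2, colour scale), with arrays in columns by group. Untreated array 2 is high for the C1q genes, Cfb, C3ar1 and the macrophage markers together, and array 3 of spironolactone plus lisinopril is high for C6 and for adipocyte markers.

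Markers of the cells that could carry these transcripts moved as well. In bulk muscle, fewer cells of a type and less RNA per cell cannot be told apart. The mean level of the 20 macrophage markers was 10.79 to 11.11 in prednisolone muscle, 11.04 to 11.31 with spironolactone plus lisinopril, 10.86 to 11.33 with eplerenone plus lisinopril and 11.32 to 11.83 in untreated muscle, so the treated groups lay at or below the lowest untreated array except for eplerenone array 3, at 11.33. Under prednisolone 6 of the 20 fell, beside 3.17% of all clusters (Cd14, Fcgr1, Tyrobp, Mrc1, Laptm5 and Aif1) and 0 rose, with a list median of -0.43, while Csf1r (-0.21 ± 0.19), Cd68 (-0.43 ± 0.36), Cd163 (0.07 ± 0.25) and Trem2 (0.03 ± 0.28) did not pass. Of the 20 estimates 16 lay below 0 (52.7% of clusters). Cx3cr1 went the other way, with 6.50, 6.80 and 7.24 in prednisolone muscle and 6.38, 6.40 and 5.75 in untreated muscle. It lay higher without overlap, as did 13.4% of clusters. With each combination 1 of the 20 fell, Cd14, beside 0.0625% of clusters for spironolactone plus lisinopril and 0.023% for eplerenone plus lisinopril. The part of macrophage content in the C1qb, Cfb and C3ar1 results was not tested. Log2 array values have no zero, so no marker can be said to be absent.

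Other marker lists were mixed, and for the counts under prednisolone the shares over all clusters were 3.17% lower and 3.22% higher past the threshold. Of 10 neutrophil markers 1 fell under prednisolone, and their mean level was 5.75 to 6.52 over the treated arrays, against 6.27, 8.07 and 8.07 in untreated muscle. Of 13 fibroblast markers 3 fell under prednisolone (Col1a1, Col3a1 and Thy1) and 2 rose (Gsn and Fbln1). Of 8 adipocyte markers, 0 passed by limma for any treatment. At an unadjusted p under 0.05, 2 were higher under prednisolone (10.9% of all clusters). With spironolactone plus lisinopril 2 were higher (6.37%), and with eplerenone plus lisinopril 1 was (6.11%). Their mean level was 11.65, 9.68 and 10.21 in prednisolone muscle, 10.47, 9.50 and 12.07 with spironolactone plus lisinopril, 9.40, 10.04 and 10.37 with eplerenone plus lisinopril, and 9.63, 9.02 and 9.69 in untreated muscle. The list median was 1.20 for prednisolone and 1.38 for spironolactone plus lisinopril, and C7 was at 1.78 and -0.82 in the same comparisons. The highest C7 and C4b readings were in prednisolone array 1, which was also the highest of its group for adipocyte markers. Without that array C7 was at 1.44 against untreated (adjusted p = 0.209). The part of adipocyte content in the C7 and C4b readings was not tested. Hepatocyte markers, of the organ that makes most plasma complement, read 4.95 to 5.00 in prednisolone muscle and 4.90 to 4.96 in untreated muscle, and 0 of 6 passed by limma or at an unadjusted p under 0.05. Of 8 T, B and NK cell markers 1 fell under prednisolone, and of 2 measured blood markers 0 passed by limma or at an unadjusted p under 0.05. Of 12 muscle fibre markers 0 passed by limma for prednisolone, 2 being higher at an unadjusted p under 0.05 (10.9% of all clusters). Their mean lay between 19.04 and 19.35 in all arrays. These markers sit at or near the top of the scale, whose highest value was 19.93. Acta1, Myh4 and Atp2a1 had means of 19.91 to 19.93 in every group. Values this close to the top can hide a difference, so they do not show whether fibre content was unchanged.

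Of a list of cytokines, cytokine receptors and signalling or transcription factors known to act on complement genes, 10 of 22 measured fell under prednisolone, beside 3.17% of all clusters. The list median was -0.51 for the 22 genes. Among the 10 that fell were Il6 (-2.18 ± 0.27), Il1b (-4.75 ± 0.95), the acute-phase factor gene Cebpd (-3.10 ± 0.41), Stat3 (-0.91 ± 0.23) and Irf1 (-0.79 ± 0.14), a mediator of interferon signalling. The list also holds an NF-kappa B inhibitor gene, Nfkbia, with means of 8.89 under prednisolone and 11.14 in untreated muscle. Il1b read 5.90, 6.22 and 6.31 in prednisolone muscle and 8.09, 12.87 and 11.72 in untreated muscle. Of the 22 estimates 19 lay below 0 (52.7% of clusters). Ifnb1, Lif and Nr3c2 lay above 0, with means of 5.18, 5.58 and 7.48 under prednisolone and 4.83, 5.39 and 7.23 in untreated muscle. With spironolactone plus lisinopril 1 of 22 fell, Il6 (-2.09 ± 0.27), beside 0.0625% of clusters, and 11 were lower at an unadjusted p under 0.05 (9.84% of clusters). With eplerenone plus lisinopril 0 passed by limma, and 9 were lower at an unadjusted p under 0.05 (7.33% of clusters). In the eplerenone group Il6 read 4.96, 4.75 and 5.04, against 6.47, 6.50 and 7.55 in untreated muscle. The part of these cytokines, receptors and factors in the complement results was not tested.

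The clusters most like each gene across the 12 arrays, by Pearson r, differed between the genes. The closest 3 to Cfb were Ptpn22 (0.97), H2-D1 (0.96) and H2-K1 (0.96), of which the last 2 encode class I histocompatibility antigens. For C1qb they were H2-DMb1 (0.95), H2-DMb2 (0.94) and Ctsh (0.93). C1qa and C1qc were closest to each other (0.95). C7 was nearest to Fbxo32, an atrophy ubiquitin ligase gene (0.98), Katnal2 (0.98) and Slit3 (0.95). C3ar1 was nearest to Lgmn (0.99), Anxa2 (0.98) and Eif4a1 (0.98). C6 was nearest to Retnla (0.94), Ighv11-1 (0.94) and Enpep (0.93), and Serping1 to Pde3a, Sash1 and Cadm3 (each 0.92). The highest r out of 30412 clusters is high by selection, and these values are descriptions over arrays that include the group differences.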

How the data were processed

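Quadriceps RNA of 12 mice was hybridised to 1-channel Affymetrix whole-transcript arrays, 1 per mouse, in 4 labelled groups of 3. Per the submitters' processing notes, the deposited log2 values were made by RMA in Affymetrix Expression Console and handled further in Transcriptome Analysis Console; no version or build is stated in the sources used here. There are 65587 transcript clusters, with values from 1.61 to 19.93, and 1.27% to 1.34% of each array's values exceed 16, the ceiling of a 16-bit scanner, so the scale of the highest values is uncertain. The number of arrays limits the precision.

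Of the clusters, 30412 have exactly 1 symbol in the platform annotation, 2118 have several and 33057 have none; 827 symbols were updated by gene ID. The deposited values were used without further normalization. A limma 3.58.1 model (R 4.3.3; lmFit and eBayes on all 12 arrays, no covariate) gave each difference as the first-named minus the second-named group, with Benjamini-Hochberg adjustment over the 30412 clusters and 95% intervals from the moderated SE. Degrees of freedom were 8 residual and 2.94 prior, and the median SE was 0.13. An exact permutation of 3 against 3 arrays cannot go below p = 0.1, so single genes were tested within this fit only. The script was tested on simulated data. Pairwise correlations between arrays ran from 0.9857 to 0.9961.

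The genes and all lists were chosen with earlier results of these data known. Named complement genes outside the 8 were those past the threshold in a comparison with untreated muscle, filled up to the 4 with the smallest p in each list, with a few added in every case. Likeness is the highest Pearson r over 12 arrays. Alternatives changed the clusters tested, a filter on dim clusters, normalization, the variance model, the arrays fitted and a replicate block. Promoters are from RefSeq (GRCm38.p6).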

Additional observations from a re-analysis of the deposited data

How the results depend on the processing

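Each comparison was repeated under 20 alternatives, 12 of which left out 1 array. The prednisolone and untreated comparison, with 2 genes past the threshold, gave 3 among clusters above the median mean (C7 added), 1 when only those arrays were fitted, 0 with untreated array 1 as the only untreated array, and 1 to 3 without single arrays, the 3 without array 3 of spironolactone plus lisinopril. Spironolactone plus lisinopril against prednisolone, with 1 gene, gave 0 with all clusters tested, with the replicate block, with only those arrays and with untreated array 1 alone, and 0 to 1 without single arrays. Eplerenone plus lisinopril against prednisolone, with 0 genes, gave 1 among clusters above the median mean and 0 to 1 without single arrays. The F-test, with 0 genes, gave 3 among clusters above the median mean (C1qb, C7 and Cfb), 1 with equal array medians (Cfb), and 0 to 3 without single arrays, the 3 without array 3 of spironolactone plus lisinopril. Testing only the brighter clusters changes both the adjustment and the fitted variance model. The cause of these changes in the calls was not tested. Of 48 gene and comparison pairs, 14 changed sign in some alternative, and 0 of these passed in any. With untreated array 1 alone, C3ar1 turned to 0.0235 for spironolactone plus lisinopril and C6 to -0.024 for eplerenone plus lisinopril against untreated. Without single arrays, C6 ran from -0.1691 to 0.0037 for prednisolone, -0.2914 to 0.3663 for spironolactone plus lisinopril and -0.0396 to 0.1333 for eplerenone plus lisinopril against untreated. For spironolactone plus lisinopril minus eplerenone plus lisinopril the ranges were -0.3311 to 0.1001 (C1qa), -0.24 to 0.245 (C3ar1), -0.3618 to 0.2959 (C6), -0.6761 to 0.1766 (C7) and -0.2136 to 0.1023 (Cfb). For spironolactone plus lisinopril minus prednisolone they were -0.4078 to 0.0143 (Serping1), -0.1384 to 0.2561 (C1qc), -0.059 to 0.3635 (C1qa) and -0.2323 to 0.4254 (C6), and for eplerenone plus lisinopril minus prednisolone -0.047 to 0.0991 (Serping1). No strong shared deviation by replicate number was seen: deviations of same-numbered arrays correlated at -0.24 to 0.16 over 18 pairs, 3 of them above 0.1. With 3 arrays per group this check cannot show whether the mice were paired. With the replicate block, C7 stayed at -2.60 for spironolactone plus lisinopril against prednisolone (adjusted p = 0.0627), the 1 call that it ended. Averaging several clusters of a gene was not run, since each of the 8 genes has 1 cluster. No drug-free pellets were among the groups, and 3 arrays per group limit what could be detected.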
